A study of Arabidopsis thaliana with 4 samples.

Results

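Bay-0, a natural accession of Arabidopsis thaliana, was set against Bur-0, Est-1 and Tsu-1 for the places where its open chromatin was called differently. Peaks on the 5 nuclear chromosomes that touched or overlapped were merged into 36153 union regions over the 4 lists. Those regions that held a peak of Bur-0, Est-1 and Tsu-1 but none of Bay-0 numbered 713, and those with a peak of Bay-0 alone, called Bay-0-only here, numbered 1523, so that 2236 of the 36153 regions are described. Regions were chosen by the presence or absence of a peak, so counts of absent peaks, and the signal of the peaks that chose them, are given as descriptions and carry no test.

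All material was 7-day-old seedlings grown on agar in long days, 1 DNase I-seq library and 1 peak list for each of Bay-0, Bur-0, Est-1 and Tsu-1, with no treatment and no replicate. Per the labels, every library came from the INTACT line UBQ10:NTF::ACT2:birA, in which a nuclear envelope fusion protein is biotinylated so that nuclei can be captured; UBQ10 and ACT2 are broadly active promoters, so cell types were pooled. The labels of all 4 libraries give Col-0 as the genetic background although titles and sources name the accession, and Tsu-1 of the sample labels appears as Tsu-0 in the series text. Nuclear peaks numbered 28821 in Bay-0, against 25298 (Bur-0), 29699 (Est-1) and 27388 (Tsu-1), and read depth is unknown. With organelle peaks the Est-1 list holds exactly 30000 peaks and the Bay-0 list 29117; whether any list was held to a set length, which would bear on both sets of regions, is unknown. Fewer cells with an open site and less opening per cell cannot be told apart in such pooled nuclei. A gene was called open where a peak fell between 1000 bp outside and 200 bp inside either gene end. Of the marker genes, 10 of 10 for photosynthesis were open in Bay-0. The same held for 7 of the 7 epidermal and stomatal genes found, of 8 listed. It also held for 5 of 8 root genes, 3 of 6 vascular genes and 4 of 6 seed genes. The epidermal gene PDF2 (AT4G04890) is not in this count. Its window had no Bay-0 peak, and best ranks of 2.37 (Bur-0), 16.3 (Est-1) and 10.1 (Tsu-1). Of the same genes, those open in all of the other 3 accessions at once numbered 10, 5, 4, 3 and 0, a stricter count than that for 1 list. Over all 27432 protein-coding genes, 18391 were open in Bay-0 and 14897 in all of the other 3. The root, vascular and seed counts are at or below that Bay-0 share and are no result about those genes. None of these marker genes was open in Bay-0 alone.

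DNase I cuts DNA most readily where nucleosomes are displaced, and in plants such sites lie mostly beside genes, where transcription factors bind. Accessions differ in sequence, and reads of an accession that differ from the Col-0 reference can fail to align, which was not tested here, so a region without a peak is a region without a call and not a measured closed site. Regions are defined by the called intervals, so calls a short distance apart count as separate regions.

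Regions without a Bay-0 peak made up 3.5% of the 20355 regions shared by the other 3 lists. The corresponding share was 13.1% for Bur-0, 3.73% for Est-1 and 5.6% for Tsu-1. Bay-0-only regions made up 5.3% of the 28739 regions with a Bay-0 peak, against 5.69% for Bur-0, 7.38% for Est-1 and 4.36% for Tsu-1. In the Bay-0-only set Bay-0 thus stood between Tsu-1 and Bur-0, and in the other set it had the lowest share of the 4 accessions.

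Signal was ranked within each list as a percentile from 0 to 100, since the deposited signals have no stated scaling between lists. The weakest of the 3 ranks of a region without a Bay-0 peak had a median of 24.2, against 48.8 in regions present in all 4 lists. Bay-0-only regions had a median Bay-0 rank of 10.8, against 62.7 in the regions of all 4 lists, with median signals of 76 and 192 and median −log10 p of 6.20 and 89.8. Most of the members were therefore weak calls: 123 of the 713 and 137 of the 1523 ranked above 50.

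By rank class, the share of regions without a Bay-0 peak was 9.64% where the weakest other rank was 0 to 10, 4.20% at 25 to 50 and 0.66% at 90 to 100. For Bay-0-only regions the share was 25.3% at Bay-0 ranks of 0 to 10, 4.46% at 25 to 50 and 0.35% at 90 to 100. Weak and strong members differed in how often a peak stood nearby. That share was not computed for other regions of like rank, so its rise with rank cannot be called particular to these sets. A neighbouring Bay-0 peak within 300 bp was found for 16.0% (11.1 to 21.9) of the regions in the weakest class without a Bay-0 peak and 82.1% (63.1 to 93.9) of those at 75 to 90, with 7 of 10 at 90 to 100. The same held for Bay-0-only regions, with another accession's peak that close in 16.3% (13.7 to 19.2) and 84.0% (63.9 to 95.5) of cases, and again 7 of 10 at 90 to 100. Ranges in parentheses after a share are its 95% Clopper-Pearson exact interval, which holds for counting error alone.

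**Figure D1:**
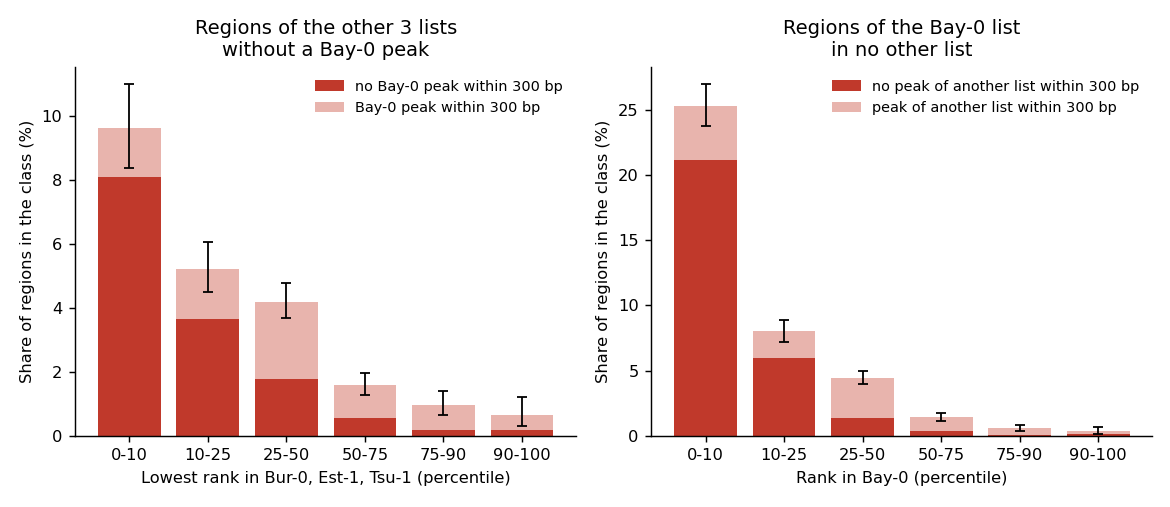
The share of regions in each rank class (percent, y axis) that lacked a Bay-0 peak (left, x axis the lowest percentile rank in the other 3 lists) or were Bay-0-only (right, x axis the Bay-0 percentile rank), with the part that has a neighbouring peak within 300 bp in the lighter colour; lines are 95% exact intervals of the whole share. The share falls from 9.64% to 0.66% on the left and from 25.3% to 0.35% on the right, and the lighter part takes most of the bars above rank 25.

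Over the whole sets, 298 of the 713 regions without a Bay-0 peak had a Bay-0 peak within 300 bp, 41.8% (38.1 to 45.5), against 22.7% for the regions that Bur-0 lacked, 39.9% for Est-1 and 30.5% for Tsu-1. Among the 1523 Bay-0-only regions, 529 had some other accession's peak within 300 bp, 34.7% (32.3 to 37.2), against 54.7% (Bur-0), 31.9% (Est-1) and 45.9% (Tsu-1). The median distance to the nearest such peak was 390 bp for regions without a Bay-0 peak and 590 bp for Bay-0-only regions. At the far end, 56 and 138 regions had none within 5000 bp. The 415 regions without a Bay-0 peak and 994 Bay-0-only regions with nothing within 300 bp are called isolated below.

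For 70 of the 298 regions with a Bay-0 peak nearby, the closest Bay-0 region was itself Bay-0-only, so the 2 sets met at the same place; 63 of these 70 pairs shared their nearest gene. The gap between the paired regions was 10 to 290 bp, with a median of 50 bp. In 10 pairs both sides ranked above 50, and they were examined by gene after their values were seen. In the transcribed interval of AT2G26690 (listed also as NPF6.2, of the nitrate and peptide transporter family) the Bay-0 peak ranked 91.8 and the missing region, 90 bp away, ranked 85.8 (Bur-0), 89.5 (Est-1) and 91.9 (Tsu-1). At MYB3, a repressor of phenylpropanoid genes, the Bay-0 rank was 85.8 and the region 10 bp away ranked 91.9, 85.5 and 92.3 in Bur-0, Est-1 and Tsu-1. BLH3, a BELL homeodomain factor, had a Bay-0 rank of 80.5 and ranks of 92.4, 86.7 and 92.4, across 70 bp. The other pairs were nearest to ROPGAP3, AT1G18900, TOE3, TOPP3, ATXRCC1, ARP8 and TDT. The pairs at MYB3, TOE3 and ATXRCC1 lay over 1000 bp from those genes, and the weakest rank of the pairs at ARP8 and TDT was 57.8 and 56.6. At each of the 10 pairs all 4 accessions had a peak, in intervals 10 to 130 bp apart. In another 130 of the 298 (43.6%) the closest Bay-0 region was one shared by all 4 lists.

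The edge of the merging rule was close by. In 79 of 19382 regions of all 4 lists with 1 peak from each, the Bay-0 peak overlapped the others by at most 30 bp, and these had a median Bay-0 rank of 50.5. Just outside the rule, 35 regions without a Bay-0 peak had one within 30 bp and 85 Bay-0-only regions had another peak within 30 bp.

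The 20 strongest isolated regions without a Bay-0 peak are given next by their nearest genes. At AT5G35110 (chromosome 5, 13369841 to 13370010, TAIR10) the signal was 1318 (Bur-0), 2400 (Est-1) and 1264 (Tsu-1), ranks of 99.9, 100 and 100, and the closest Bay-0 peak was 8270 bp away. Its −log10 p, however, was only 60.9, 201 and 91.5, whereas 97.2% of Bur-0 peaks, 98.6% of Est-1 peaks and 99.3% of Tsu-1 peaks ranked above 99 stood at the highest value their list holds. The gene lies 5429 bp from the region, in a gene-poor 100 kb stretch with 8 protein-coding genes, and the nearest annotated feature of any kind was a transcribed pseudogene 2599 bp away. Its very high signal and modest score set it apart from the other top peaks of each list.

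MKK9, a mitogen-activated protein kinase kinase of ethylene and stress signalling, had both of its missing regions on the isolated side. The first (chromosome 1, 27638321 to 27638650), 440 bp from the gene, ranked 99.2 (Bur-0), 99.9 (Est-1) and 98.99 (Tsu-1). The second (27638921 to 27639130), at the gene end, ranked 74.5, 52.2 and 42.5 in the same order. MKK9 itself was still called open in Bay-0, with a best rank of 50.9 in its window. The closest Bay-0 peak lay 1890 and 1410 bp from the regions. That Bay-0 rank therefore belongs to another place near MKK9, and not to a weaker peak at either missing region.

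AT2G21185 also had a pair of isolated regions. They ranked 90.6, 95.8 and 93.5, and 66.7, 78.5 and 85.6, in Bur-0, Est-1 and Tsu-1, with Bay-0 peaks 490 and 630 bp away, so signal was present close to each. AT4G09420 (chromosome 4, 5964241 to 5964450) ranked 89.3, 86.7 and 91.0, and its closest Bay-0 peak was 28390 bp away. AT4G01516 ranked 89.4, 82.5 and 95.9, with the closest Bay-0 peak at 9410 bp.

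Next came AT1G15670 (also KFB01 and KMD2, a Kelch F-box protein of the phenylpropanoid and cytokinin pathways), ranked 84.6, 89.3 and 79.5 in Bur-0, Est-1 and Tsu-1 with a Bay-0 peak 430 bp away. LQY1, a thylakoid protein for repair of photosystem II, ranked 81.7, 88.1 and 70.8 in those accessions, at the gene end, with a Bay-0 peak 2190 bp away. MYC4, a bHLH factor of jasmonate responses, ranked 81.9, 71.5 and 70.5, at the gene end, with a Bay-0 peak 410 bp away. THFS, a synthetase of folate metabolism, ranked 68.9, 78.2 and 64.8, 511 bp from the gene. The remaining isolated regions of the strongest 20 were nearest to AT3G03770, AT5G19110, AT5G27730, AT5G65300, AT1G26850, AT5G59960, AT5G27920, AT5G53150, AT4G16770 and AT4G18422, with weakest ranks of 63.7 to 81.7 and Bay-0 peaks 330 to 810 bp away. Only the first 5 places by gene, AT5G35110, MKK9, AT2G21185, AT4G09420 and AT4G01516, ranked above 80 in all 3 lists with the Bay-0 peak at least 490 bp away.

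**Figure D2:**
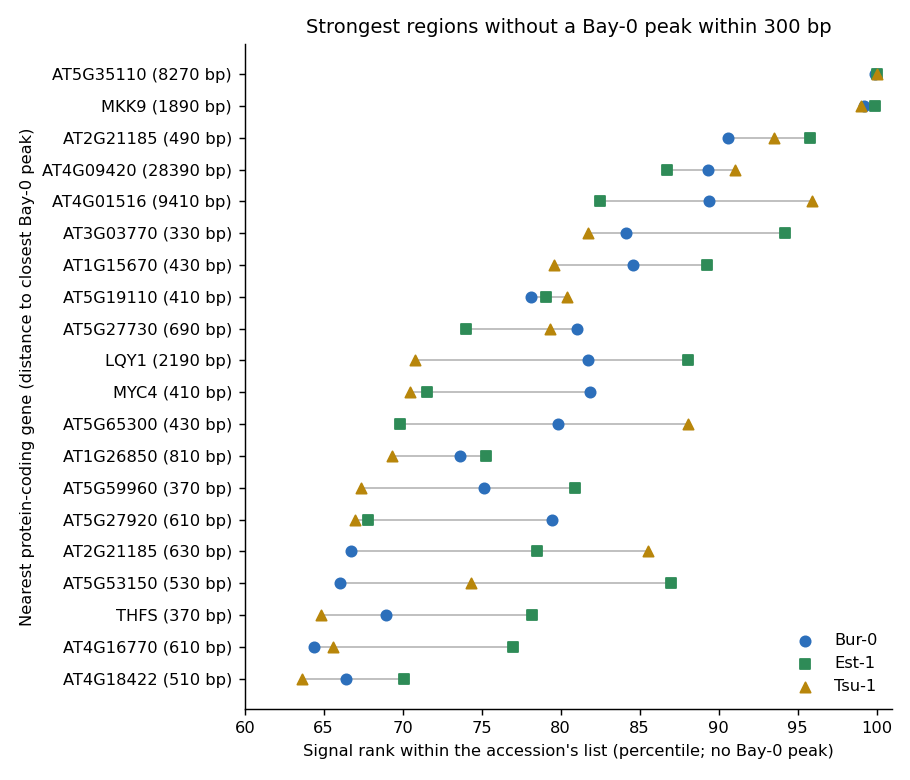
Percentile rank of signal (x axis) in Bur-0, Est-1 and Tsu-1 for the 20 strongest isolated regions without a Bay-0 peak, 1 row per region, named by the nearest protein-coding gene (y axis, distance to the closest Bay-0 peak in parentheses). The top 2 rows, AT5G35110 and MKK9, sit at 98.99 to 100, and the others spread between 63.7 and 95.9.

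Regions with a Bay-0 peak within 300 bp ranked as high. The 10 strongest were nearest to EDA12, a gene named for embryo sac development, AT5G08139, TOPP3, a protein phosphatase, AT5G44260 (also TZF5, a tandem zinc finger protein), AT5G14880 (also KUP8, a potassium transporter), RALFL21, a RALF-like signalling peptide, AT3G19680, AT3G23090 (also WDL3, a microtubule-associated protein), WRKY6, a factor of phosphate and senescence responses, and BLH3. Their weakest ranks were 86.7 to 97.0, with Bay-0 peaks 30 to 270 bp away. For RALFL21 the ranks were 99.2 (Bur-0), 90.7 (Est-1) and 98.7 (Tsu-1), with the Bay-0 peak 50 bp away.

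Isolated Bay-0-only regions were weaker, and 33 of 994 ranked above 50, against 37 of the 415 isolated regions without a Bay-0 peak. The region nearest AT4G19530 (chromosome 4, 10649581 to 10649730) led with a Bay-0 signal of 503, rank 97.3, and the nearest peak of another list lay 490 bp away. AT1G51810 followed with a signal of 434 and rank 94.8, 410 bp from another list's peak. CYP706A7, a cytochrome P450, had 375 and rank 91.4 within the gene, 1050 bp from the nearest other peak. FIP1, the FRIGIDA INTERACTING PROTEIN, had 344 and rank 88.8 in the flank 846 bp from the gene, 1390 bp from the nearest other peak. The median Bay-0 signal in regions of all 4 lists was 192, and these 4 signals stood well above it.

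AT3G29450 (signal 316) had the most distant neighbour of the 20, 22410 bp away, in a 100 kb stretch with 9 protein-coding genes. Named genes of known function among the rest were KCS8, a ketoacyl-CoA synthase of fatty acid elongation, with signal 213; FUT8, a fucosyltransferase, with 211; PAP1, here the phosphatidic acid phosphatase, with 207; and DRB4, the double-stranded RNA-binding partner of a Dicer-like enzyme, with 207. The others were AT3G44220, AT4G08580, AT4G19520, AT4G20735, AT5G13240, AT5G54067, AT1G61310, AT5G03360, AT1G20970, AT3G29255 and AT5G45455, with signals of 198 to 337. FUT8 and AT1G61310 had their nearest peak of another list 5190 and 8630 bp away.

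**Figure D3:**
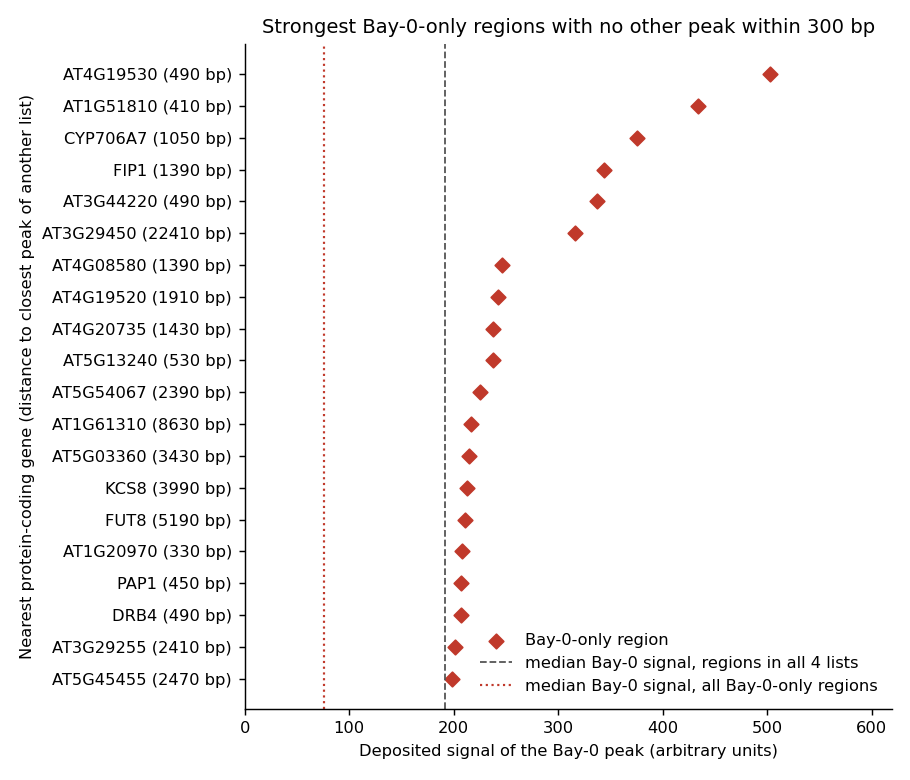
Deposited Bay-0 signal (x axis, arbitrary units) of the 20 strongest isolated Bay-0-only regions, 1 row per region with the nearest protein-coding gene and the distance to the closest peak of another list (y axis). All 20 lie between 198 and 503, above the dashed line at 192 (median of regions in all 4 lists) and far above the dotted line at 76 (median of all Bay-0-only regions).

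The Bay-0-only regions with a neighbour within 300 bp were stronger at the top. RLT2, a homeodomain protein of the ISWI chromatin remodelling complexes, had a Bay-0 signal of 579, rank 98.7, with a peak of another list 30 bp away. The other 9 were nearest to AT3G57810, AT5G65470, AT2G26690, OFP15 (an ovate family repressor), BRG1 (a RING-type ubiquitin ligase), GALS2 (a galactan synthase), AT2G39865, COL9 (a CONSTANS-like protein that delays flowering) and WAVE5 (an actin-regulating WAVE subunit). Their signals were 332 to 393, with the neighbouring peak 10 to 170 bp away.

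Per gene, the members fell on 681 genes for the regions without a Bay-0 peak and on 1441 for the Bay-0-only regions, and 116 genes were nearest to both kinds. Most genes, 650 and 1368, had 1 region, and 30 and 65 had 2. Of the 681 genes, 549 still had a Bay-0 peak in their window, as had 18391 of all 27432 protein-coding genes. Of the 1441 genes, 1054 were open in another accession, a count that was not made over all genes.

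Over all 27432 protein-coding genes, 175 of the 14897 genes that were open in each of the other accessions lacked a Bay-0 peak in their window, 1.17%. The same count was 1361 for Bur-0, 168 for Est-1 and 611 for Tsu-1. Genes open in Bay-0 alone numbered 485 of 18391, 2.64%, against 221 (Bur-0), 615 (Est-1) and 223 (Tsu-1). Of the 175 genes, 135 had a region without a Bay-0 peak in their window; the other 40 had no such region in their window, and peaks of regions with another pattern of calls had opened them. The same split of the 485 genes was 472 and 13. The genes of these 2 lists given next were chosen after their values were seen, for symbols of known function.

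AT4G09420 and AT5G27730, described above, led the genes with a missing region in their window. CSLA02, a cellulose synthase-like glucomannan synthase, had best ranks of 61.9 in Bur-0, 74.4 in Est-1, 65.9 in Tsu-1 and no Bay-0 peak. PGL2, a phosphogluconolactonase of the pentose phosphate pathway, had 56.3, 61.3 and 51.1, and NPQ6, of non-photochemical quenching, had 47.0, 88.6 and 75.7. Each of these 3 genes had peaks of middle to high rank in the other accessions and none in Bay-0. AT1G58602, whose region lay 43 bp from the gene, had 95.1, 80.8 and 50.6, and its closest Bay-0 peak was 12130 bp away, so the spread among the 3 accessions was wide. RLP37, a receptor-like protein, RPL24, a ribosomal protein, UGD1, a UDP-glucose dehydrogenase, GRXC2, a glutaredoxin, RR24, a response regulator, the neighbours CYP72A7 and CYP72A8, LCR34 and TPLATE, of clathrin-mediated endocytosis, also had a missing region in their window, with weakest ranks of 15.2 to 50.1. FDM2, a factor of RNA-directed DNA methylation with best ranks of 78.1, 72.4 and 75.9, and BGAL10, a beta-galactosidase of the cell wall with 72.6, 77.7 and 67.0, were among the 40 without one.

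On the other side, AT1G51810, FIP1, AT3G29450 and AT4G32105 were open in Bay-0 alone at ranks of 94.8, 88.8, 85.9 and 83.2, each through a Bay-0-only region in the window. AT4G19520 had 74.8, FUT8 67.8 and LAC2, a laccase, 42.0, likewise with a Bay-0-only region. ANT, an AP2-type factor of organ growth, was listed at 94.3 and UCC3, a uclacyanin, at 64.9, but no Bay-0-only region lay in either window. At AT5G45440, AT5G45450, AT5G45455 and AT5G45460, a row of neighbouring loci, the best Bay-0 ranks were 57.7, 64.4, 64.4 and 64.4, and overlapping windows let 1 peak open 3 of them.

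Families were then counted by symbol, against 3.5% and 5.3% over all regions, and a share near these is no result about the family. Only genes with a matching symbol or synonym were counted, and 17069 genes had no symbol of their own. The counts are therefore not those of whole families. Glucosinolate genes, which make and process the defence compounds of the Brassicaceae, had 3 of 26 regions without a Bay-0 peak, 11.5% (2.45 to 30.2), and no Bay-0 peak stood within 300 bp of any of the 3. They were nearest to MYB28, a master regulator of the aliphatic pathway, with ranks of 60.4 (Bur-0), 72.4 (Est-1) and 75.4 (Tsu-1), 533 bp from the gene and 1670 bp from a Bay-0 peak, to MAM1, the chain-elongating synthase, with 10.4, 26.0 and 16.0, 8930 bp from a Bay-0 peak, and to MYB29, with 3.55, 8.61 and 0.67. The regions of MAM1 and MYB29 were weak and lay 2187 and 2798 bp from the genes. Bay-0-only regions were nearest to ESM1 (Bay-0 rank 27.8, another list's peak 250 bp away), AOP3 (22.7, 2610 bp) and NSP2 (0.63, 3870 bp), which act in side-chain and hydrolysis steps, 3 of 35 regions. The interval of the share takes in the background of 3.5%.

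MYB genes had 12 of 199 regions without a Bay-0 peak, 6.03% (3.15 to 10.3), and 5 of the 12 had a Bay-0 peak within 300 bp. The strongest were at MYB3, MYB28 and MYB102, the last a wound-responsive factor with ranks of 51.6, 81.8 and 83.0 and a Bay-0 peak 130 bp away. MYB genes had 10 of 270 Bay-0-only regions, led by MYB3 (85.8), MYB31 (38.0) and MYB73 (36.4). WRKY factors had 6 of 117 (5.13%) and 4 of 146 (2.74%). The WRKY6 region had a Bay-0 peak 70 bp away. WRKY27 and WRKY21 had isolated regions, with weakest ranks of 60.4 and 56.3 and Bay-0 peaks 470 and 330 bp away. A further WRKY27 region had a Bay-0 peak 170 bp away. WRKY17, WRKY23 and WRKY65 had Bay-0-only regions of ranks 32.6, 30.9 and 7.7.

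Receptor kinases and receptor-like proteins had 5 of 105 regions without a Bay-0 peak (4.76%), none of them within 300 bp of a Bay-0 peak, and 9 of 142 Bay-0-only regions (6.34%), with 1 near another peak. The strongest of the missing set were at CRK42 (48.1 in Bur-0, 43.9 in Est-1, 56.2 in Tsu-1), RLP9 and RLP36, and the strongest of the Bay-0-only set at RLP1, RLP27 and AT1G08590, of Bay-0 ranks 10.2, 9.5 and 7.7. Kinase cascade and calcium genes had 9 of 193 (4.66%) and 10 of 244 (4.10%). After MKK9 the strongest missing region was at SIP3, a calcineurin B-like interacting kinase, and CPK1, MPK7 and CML41 led the Bay-0-only set with ranks of 59.0, 58.7 and 39.5, each within 30 to 110 bp of another list's peak.

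Cytochrome P450 genes had 10 of 225 regions without a Bay-0 peak (4.44%) and 22 of 311 Bay-0-only regions (7.07%, 4.49 to 10.5), and those Bay-0-only regions were led by CYP706A7, CYP708A2, of the thalianol cluster, and CYP735A2, a cytokinin hydroxylase. BAS1, a brassinosteroid-inactivating P450, had the strongest region without a Bay-0 peak, with ranks of 87.9 (Bur-0), 67.3 (Est-1) and 84.1 (Tsu-1) and a Bay-0 peak 130 bp away. Transporters had 6 of 353 regions without a Bay-0 peak (1.70%, 0.63 to 3.66) and 29 of 505 Bay-0-only regions (5.74%, 3.88 to 8.14). Besides AT2G26690, PIP1C, an aquaporin, had 1 region of each kind. STP12, a sugar transport protein, had an isolated missing region with ranks of 35.7, 17.2 and 42.5, 8450 bp from a Bay-0 peak. Defensin-like genes had 6 of 60 Bay-0-only regions (95% exact interval of the share 3.76 to 20.5%), at PDF1.2 (rank 43.4), LCR50 (38.5) and LCR58 (21.6) first. Each of these intervals takes in its background of 3.5% or 5.3%.

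Growth and hormone factors were mostly near background or below it. NAC genes had 5 of 134 and 7 of 168 regions, at NAC083, NAC069 and ANAC087 for the missing set and NAC3, NAC1 and NST1 for the Bay-0-only set. AP2/ERF genes had 5 of 198 and 8 of 227, and 4 of the 5 and 7 of the 8 had a neighbour within 300 bp. CRF2, a cytokinin response factor, had regions of both kinds, the strongest Bay-0-only one of rank 62.1, and ranks of 34.4, 39.9 and 48.5 in Bur-0, Est-1 and Tsu-1 for the region it lacked. Homeobox genes had 4 of 220 (1.82%) and 7 of 281 (2.49%), at BLH3, HB30 and BLH1 and at BLH3, HAT3 and HB-8. Zinc finger and CONSTANS-like genes had 3 of 197 (1.52%) and 11 of 253 (4.35%), with BME3, ZAT11 and GATA5 in the first set and COL9, ZFP5 and BBX17 in the second. MADS genes had 3 of 69 and 2 of 92. The TCP, GRAS, SPL, ARF and heat shock factor group had 3 of 168 and 4 of 208, at SPL8, TCP15 and ARF4 and at TCP8, HSFA6B and ETT.

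Auxin-induced SAUR genes had 4 of 99 and 7 of 139, with the strongest region without a Bay-0 peak at AT4G34770 (89.5, 81.5 and 87.4, Bay-0 peak 30 bp away) and the strongest Bay-0-only region at AT1G75590, rank 68.9. The Aux/IAA repressors had 1 of 65 and 5 of 92, at SHY2, IAA11 and AXR3 in Bay-0. Cell wall genes had 7 of 177 and 8 of 242, led in the missing set by CSLC04, a xyloglucan backbone synthase, EXPA5, an expansin, and PME1. Signalling peptides had 4 of 126 and 4 of 172. F-box and ubiquitin genes had 5 of 158 and 4 of 210, with CNI1, a ubiquitin ligase of carbon and nitrogen balance, in both. Histone genes had 0 of 26 and 0 of 31, and glutathione transferase, GH3 and ARR genes had 0 of 34, 0 of 21 and 0 of 35 missing regions. With so few regions the exact upper limits on those shares reached 16.1%.

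**Figure D4:**
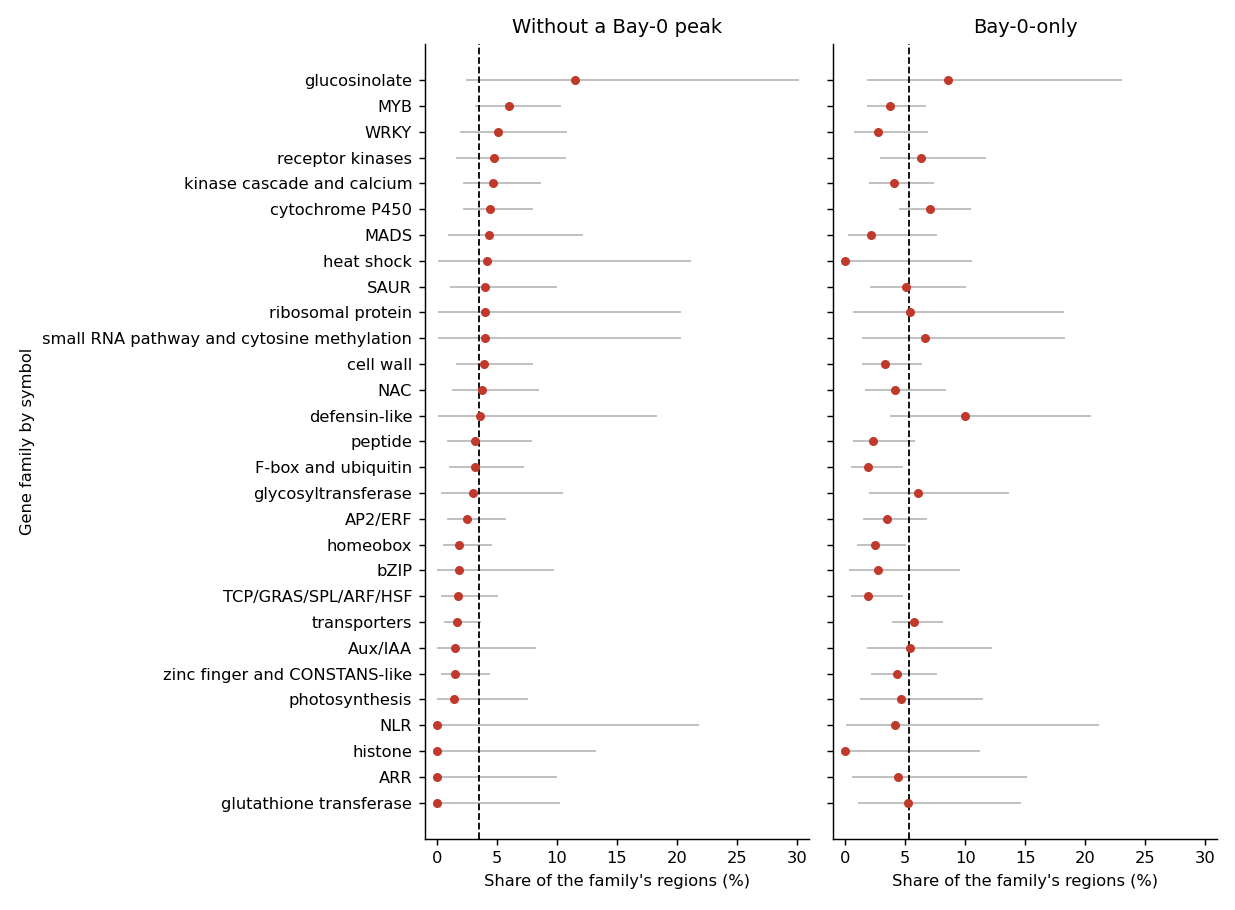
Share of each family's regions (x axis, percent) without a Bay-0 peak (left) or Bay-0-only (right) for families with at least 20 genes, points with 95% exact intervals; dashed lines mark 3.5% and 5.3%. Every left-hand interval takes in its dashed line; on the right, those of the homeobox, the F-box and ubiquitin, and the TCP, GRAS, SPL, ARF and heat shock factor genes end below theirs. The highest left-hand share is that of the glucosinolate genes, 11.5% over 26 regions.

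Of 16 clock genes, all were open in Bay-0, as were 18391 of all 27432 protein-coding genes. Of their 26 regions 0 lacked a Bay-0 peak (0 to 13.2%), against 3.5% over all regions. TIC, a clock regulator, had a Bay-0-only region of rank 56.0 with another list's peak 110 bp away. Flowering genes had 0 of 32 regions without a Bay-0 peak (0 to 10.9%) and 2 of 39 Bay-0-only regions (5.13%, against 5.3% over all regions). Both intervals of the missing regions take in the 3.5%, so neither 0 is a result about these genes. VIN3, the cold-induced vernalization factor, was open in Bay-0 alone, at rank 13.3, 76 bp from the gene and 7770 bp from any peak of another list. The AP1 region ranked 0.80, at the low end of the list. Of the genes for mitogen-activated kinases and defence, 4 of 26 regions lacked a Bay-0 peak, 15.4% (4.36 to 34.9) against 3.5% over all regions, namely the pair at MKK9, 1 at MPK9 (52.5, 38.4 and 27.03, Bay-0 peak 530 bp away) and 1 at ACD6. This list was chosen with earlier results of these data known, MKK9 among them, and 2 of its 4 regions belong to that 1 gene.

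Loci with known natural variation had 3 of 29 regions without a Bay-0 peak, 10.3% (2.19 to 27.4) against 3.5% over all regions, and 6 of 39 Bay-0-only regions, 15.4% (5.86 to 30.5) against 5.3%. This list too was chosen with earlier results known, RLT2 among them, so these shares are descriptions. ACD6, a regulator of cell death and defence whose alleles differ in activity among accessions, had a missing region inside the gene with ranks of 20.9, 6.99 and 7.39, 4050 bp from a Bay-0 peak, and a Bay-0-only region of rank 15.1 within 30 bp of another peak. Its best Bay-0 rank was 68.1, against 16.6 (Bur-0), 36.6 (Est-1) and 37.6 (Tsu-1). PHYC, a phytochrome, had a Bay-0-only region of rank 13.9, and DOG1, the seed dormancy gene, one of rank 5.86. RLT2 had both kinds, the missing one ranking 27.6, 44.3 and 37.6. RBCS1A, a Rubisco small subunit gene, had a region without a Bay-0 peak ranked 49.6, 41.2 and 54.2, with a Bay-0 peak 290 bp away, and its best Bay-0 rank of 98.4 was above 97.1 (Bur-0), 97.6 (Est-1) and 97.7 (Tsu-1).

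In their places relative to protein-coding genes, the 2 sets differed from each other. Midpoints within 400 bp of a gene end made up 44.2% (40.5 to 47.9) of the regions without a Bay-0 peak and 54.2% (51.6 to 56.7) of Bay-0-only regions, against 57.1% (56.4 to 57.7) of the regions in all 4 lists. Of the 994 isolated Bay-0-only regions 58.2% (55.1 to 61.3) lay at gene ends, an interval that takes in the 57.1%. Distal places, over 1000 bp from any gene, held 28.9% (25.6 to 32.4) and 20.8% (18.8 to 22.9), against 20.2% (19.6 to 20.7). Gene interiors held 8.27% and 8.47%, against 5.85% (5.53 to 6.19). Gene-poor stretches, bins of 100 kb with fewer than 15 protein-coding genes, held 5.05% (3.56 to 6.92) and 5.45% (4.36 to 6.71), against 2.35% (2.14 to 2.57).

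Within classes of rank the gap to the regions in all 4 lists at gene ends was wider than over the whole sets, in both sets. At ranks of 0 to 25 gene ends held 51.4% of the regions without a Bay-0 peak, against 65.4% of the regions in all 4 lists. At 50 to 100 these were 32.5% and 51.1%. For the Bay-0-only regions the shares were 58.2% and 36.5% in the same rank classes, against 64.8% and 53.9% in all 4 lists. Strong members of both sets lay away from gene ends more often than equally ranked shared regions, with intervals that do not overlap in either set at ranks above 50.

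The same shares were computed for the other accessions. Among the regions each lacked, gene ends held 57.8% (Bur-0), 49.7% (Est-1) and 63.5% (Tsu-1). Among the regions of 1 accession alone, they held 42.8% (Bur-0), 52.3% (Est-1) and 45.1% (Tsu-1). In the same order, distal places held 19.1%, 26.1% and 17.4% of the regions lacked, and 29.2%, 21.1% and 26.9% of those of 1 accession alone. Gene-poor bins held 3.10%, 4.47% and 3.09%, and 8.72%, 4.76% and 6.46%. Each gene-poor share was above the 2.35% of regions in all 4 lists, so a raised share was not particular to Bay-0. Pseudogenes were touched by 4 of the 713 and 16 of the 1523 regions, against 53 of the 19642 in all 4 lists.

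**Figure D5:**
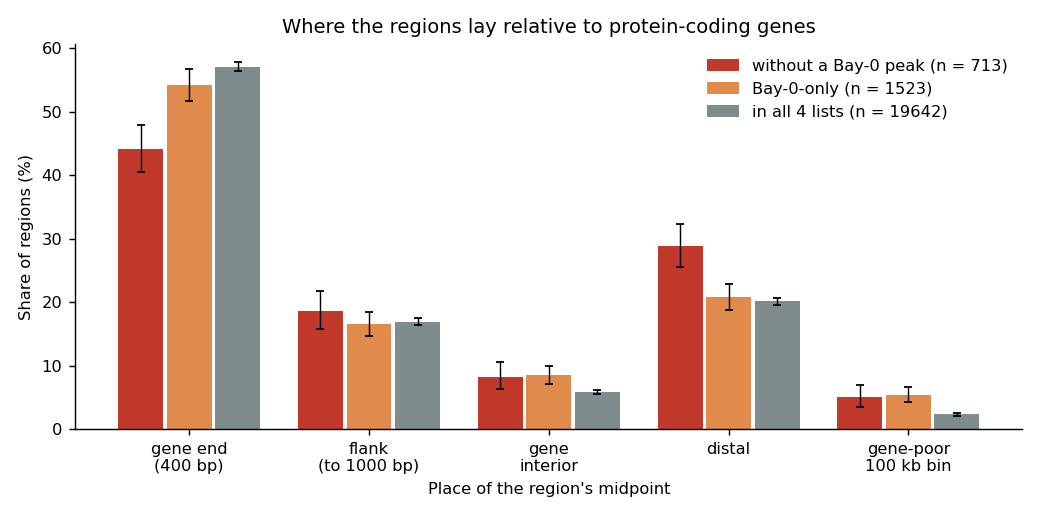
Share of regions (y axis, percent) by place of the midpoint relative to protein-coding genes (x axis), for regions without a Bay-0 peak, Bay-0-only regions and regions in all 4 lists; gene-poor bins overlap the other classes, and lines are 95% exact intervals. Regions without a Bay-0 peak have the lowest bar at gene ends, 44.2%, and the highest among distal places, 28.9%.

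By chromosome, the share of regions without a Bay-0 peak was lowest on chromosome 1, 3.09% (2.65 to 3.59), and highest on chromosome 4, 4.15% (3.47 to 4.92). Bay-0-only shares were 4.91% (4.44 to 5.41) on chromosome 1 and 6.07% (5.37 to 6.82) on chromosome 4. Runs without a Bay-0 peak were taken among the regions shared by the other 3 lists, so other Bay-0 peaks can lie between their members. Bay-0-only runs were taken among all regions. Runs of neighbouring members were few: 78 of the 713 regions stood next to another region without a Bay-0 peak, 10.9%, in 34 pairs and 3 longer runs, and 179 of the 1523 Bay-0-only regions, 11.8%, in 76 pairs and 8 longer runs. Of the regions that each other accession lacked, 31.6% (Bur-0), 11.7% (Est-1) and 16.1% (Tsu-1) were in runs.

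The longest run without a Bay-0 peak held 4 regions on chromosome 3 between 12127101 and 12451410. They were nearest to AT3G30520, bZIP42, AT3G30730 and ERD5, the proline dehydrogenase. Bay-0 peaks stood 1130, 12110, 2310 and 290 bp from these regions, so the stretch as a whole was not free of Bay-0 peaks. The next held 3 regions in 1410 bp of chromosome 4 (5964241 to 5965650), all nearest to AT4G09420, with weakest ranks of 86.7, 15.1 and 35.0 and no Bay-0 peak within 27190 bp. The last held 3 regions on chromosome 5 (21407301 to 21408730), nearest to AT5G52820 and, for 2 of them, WRKY27, a factor of bacterial wilt responses. Its weakest ranks were 12.6, 60.4 and 50.6, and Bay-0 peaks stood 1410, 470 and 170 bp away.

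Of the Bay-0-only runs, the longest held 5 regions on chromosome 2 (6544081 to 6562830), 4 nearest to KCS8 and 1 to AT2G15130, at Bay-0 ranks of 4.68 to 68.3, with no peak of another list within 1850 bp. A run of 4 on chromosome 4 (10647121 to 10649730) was nearest to AT4G19520 and AT4G19530, with ranks of 4.11, 74.8, 38.5 and 97.3. Thus the strongest isolated Bay-0-only region of all stood in a stretch of 2610 bp with 3 more. The other 6 runs, of 3 regions each, were nearest to AT2G02610 and AT2G02620, to AT2G03955 and AT2G03965, to AT3G44050, AT3G44060 and AT3G44090, to AT4G20735, to AT4G39420, and to AT5G38310, LCR58 and AT5G38320. LCR58 belongs to the low-molecular-weight, cysteine-rich peptides counted above among the defensin-like genes.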

How the data were processed

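Peak lists of 4 libraries, 1 per accession, were used. Seeds were stratified for 2 to 4 days, seedlings were grown for 7 days, and captured nuclei were digested with 45 units of DNase I, per the labels' protocols. Per the submitters' processing notes, reads were handled with Bowtie 0.12.7 and the TAIR10 build. Peak calling and read depth: not given in the sources used here. The deposited signal is the authors' whole number per peak, with no stated scaling. The deposited −log10 p is the authors' value per peak, capped at the top of its range.

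From these, regions, ranks, nearest genes, families and runs were computed with Python 3.11.15, pandas 2.3.3, numpy 2.4.6 and SciPy 1.17.1, and figures with Matplotlib 3.10.9; 6 of 6 checks on simulated data were met. Genes were taken from a RefSeq table (assembly TAIR10.1) with no strand or exons, of which 27432 nuclear protein-coding genes were used. Regions fitted the table's gene ends best at shifts of at most 100 bp, of up to 20 kb tried, on all 5 chromosomes. Distances run from the region's edge to the gene. Coordinates are 1-based. The planned count of sequence motifs was not run, since no sequence was analysed here.

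The members and gene lists were chosen with earlier results of these data known. Regions named are the 20 strongest isolated and the 10 strongest with a neighbour within 300 bp in each set, runs of 3 or more, list genes, and the 3 strongest per family with at least 3 genes in a set. Families were matched by symbol (32 families), and wrong matches were dropped by name after the matched genes were seen. Alternatives were other overlaps, distances, list lengths, gene-end widths and bins, and the rule without each accession.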

Additional observations from a re-analysis of the deposited data

Results flagged for a closer look

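Outside the nuclear comparison, Bay-0 had 296 peaks on the chloroplast and mitochondrial genomes, of which 252 were chloroplast and 44 mitochondrial; Bur-0 had 269 and Est-1 301 on both genomes, and Tsu-1 had 242 chloroplast and 4 mitochondrial peaks. They were counted because no comparison above uses them, and there is no control library.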

How the results depend on the processing

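No paired analysis was possible because each accession has 1 library and no result comes from a test. Of 40 alternative values for 10 results, 14 stayed within their limits and 26 moved. Counts without a Bay-0 peak (713) were 369 in the stronger 50% of each list and 1635, 1189 and 1284 when Bur-0, Est-1 or Tsu-1 was left out of the rule. Bay-0-only counts (1523) were 2447 with an overlap of at least 50%, 814 in the stronger 50% and 3052 without Est-1. Shares with a neighbouring peak were 24.0% and 22.3% within 150 bp, 57.4% and 46.7% within 500 bp, 71.7% and 60.2% within 1000 bp and 30.6% and 24.8% in the stronger 50% (regions without a Bay-0 peak, then Bay-0-only), and 33.5% for the first set with lists of equal length (25298 peaks). Gene ends held 31% and 41.4% at 200 bp and 67.6% and 76.0% at 1000 bp, against 45.7% and 77.2% in all 4 lists, so the order was kept. Isolated Bay-0-only regions were at gene ends in 58.2% (55.1 to 61.3) of cases, which takes in the 57.1% of regions in all 4 lists. The share over all Bay-0-only regions was below it. Gene-poor bins held 7.23% and 7.04% of isolated regions and, with fewer than 10 genes per bin, 2.104% and 2.69%, against 1.21% in all 4 lists. Genes lost in Bay-0 (175) were 271 with equal lists. The cause of these shifts was not tested. Read depth is unknown, so no count was adjusted for it, and with 1 library per accession no value has a replicate check.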

Other observations

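Over stretches of 1 Mb with at least 50 regions, the share without a Bay-0 peak was highest on chromosome 2 from 6000001 to 7000000, at 8 of 61 regions (13.1%), and there 12 of 93 Bay-0 regions (12.9%) were Bay-0-only. On chromosome 5 from 9000001 to 10000000 it was 14 of 113 (12.4%), and on chromosome 4 from 10000001 to 11000000 it was 18 of 208 (8.7%). The shares that Bur-0, Est-1 and Tsu-1 lacked were 18.5%, 8.62% and 1.85% in the chromosome 2 stretch. They were 12.4%, 10% and 5.71% in that of chromosome 5, and 12.4%, 4.04% and 5% in that of chromosome 4. Over all regions these shares were 13.1%, 3.73% and 5.6%, so the chromosome 2 and chromosome 5 stretches were high in Est-1 as well. Bay-0-only regions were most frequent on chromosome 5 from 10000001 to 11000000, at 11 of 60 (18.3%), on chromosome 3 from 15000001 to 16000000, at 13 of 75 (17.3%), and on chromosome 4 from 5000001 to 6000000, at 13 of 84 (15.5%). Union regions in gene-poor bins numbered 57, 14 and 0 in the stretches named first, and 83, 54 and 59 in those named for Bay-0-only regions. All of these stretches were chosen after their values were seen. The chromosome 2 stretch holds the KCS8 run of Bay-0-only regions.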
